A study of Mus musculus with 21 samples.

Results

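The coagulation and fibrinolysis genes described here are 34 genes of the blood clotting cascade, its inhibitors and the system that dissolves clots, measured in mouse liver. They were chosen by name: each array probe was matched to a gene through its transcript accession, and the brightest matching probe stood for the gene. All 34 genes had a probe among the 16535 named genes on the array. Of these, 32 were among the 17623 features (named genes and unnamed probes) that were bright enough in liver to be tested. The urokinase gene Plau and the protein C inhibitor gene Serpina5 were not, since their liver signal was not well above background on any of the 21 arrays.

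Female C57BL/6 mice, bought at an age of 5 to 7 weeks and housed for another 1 to 3 weeks, received nano-TiO2 or its vehicle once, by instillation into the trachea. The TiO2 dose was 162 µg per mouse, and the vehicle, which all mice received, was saline with acellular lung lavage fluid taken from untreated mice. Livers were collected at day 1 from 5 control and 6 TiO2 mice and at day 28 from 4 control and 6 TiO2 mice. Each array held the RNA of 1 mouse labelled red and a commercial reference pool of mouse RNA labelled green, so a level below is log2 of liver over reference. Such a ratio gives how a gene differs between mice but does not order different genes by abundance. The labels call the mice biological replicates, and the p-values measure the spread between them. Without scan day as a block in the fit, that spread includes differences between the days on which the arrays were scanned. The particles were placed in the airway, so that the liver was exposed only to what reached it from there, and no group received TiO2 by another route.

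Hepatocytes make most circulating clotting factors, their inhibitors and plasminogen. In the cascade, tissue factor with factor VII, or the contact proteins, start a chain of proteases that ends with thrombin cutting fibrinogen into fibrin, and plasmin later digests the clot. Fibrinogen is also an acute phase protein, whose genes in hepatocytes respond to interleukin-6 through STAT3 and C/EBP factors. Endothelial cells supply von Willebrand factor, factor VIII, thrombomodulin and tissue plasminogen activator.

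The number of probes well above background in liver ranged from 12980 to 26613 per array and was highest on the second of 3 scan days. The labels' extraction protocol speaks of lung although the tissue is given as liver. On every array, 14 or 15 of the 15 hepatocyte markers with a probe (such as Alb, Ttr and Apoa1) were well above background, at median levels of 5.86 to 7.19. Of 13 lung markers, 4 to 11 were above background per array, at median levels of -0.04 to 0.24. The alveolar marker Ager was so on no array and 2 others on all of them, and the list includes Cyp2f2, which hepatocytes also express. The summed liver over reference ratio of the lung markers was 18.7 to 145, against 1910 to 5420 for the hepatocyte markers. In whole liver, fewer cells of a type and less RNA per cell cannot be told apart. The first principal component of all features held 40.2% of their variance, and the scan day, a date in the array headers, accounted for 91.7% of that component against 1.5% for the 4 groups.

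None of the 32 genes passed the test after TiO2 at either day. At day 1, 11 genes were higher and 21 lower in TiO2 than in control mice, with differences from -0.41 (Fga and Serpind1) to 0.38 (Serpina10) and a median of -0.049, against -0.007 over all features tested. At day 28, 17 were higher and 15 lower, from -0.28 (Kng1) to 0.37 (Serpina10), with a median of 0.008 against 0.002. The limma adjusted p was 1 for all 32 genes at both days, and 0% of all features passed 0.05 in either comparison. Without adjustment, 1 of the 32 genes (Serpina10) had a limma p under 0.05 at day 1, where 1.74% of all features did, and 0 had one at day 28, where 0.919% did. With scan day as a block in the fit, 2 genes (Serpina10 and Serpinf2) did so at day 1 and 0 at day 28, where 4.07% and 3.1% of all features did. In that fit the median difference of the 32 genes was -0.031 at day 1 and 0.001 at day 28, against -0.012 and -0.005 over all features. TiO2 and control mice overlapped for each of the 32 genes at both days, whereas they did not for 0.108% of all features at day 1 and 0.284% at day 28.

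These arrays limited how small a difference could be seen. The 95% interval of the difference lay within 1 log2 unit of 0, a 2-fold change, for 28 of the 32 genes at either day. The median standard error (SE) was 0.24 at day 1 and 0.26 at day 28. In the fit with scan day these were 0.15 and 0.16. The genes also varied more between mice of a group than most features, with a median SD of 0.424 against 0.233. Within a group and scan day these medians were 0.258 and 0.180.

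**Figure D1:**
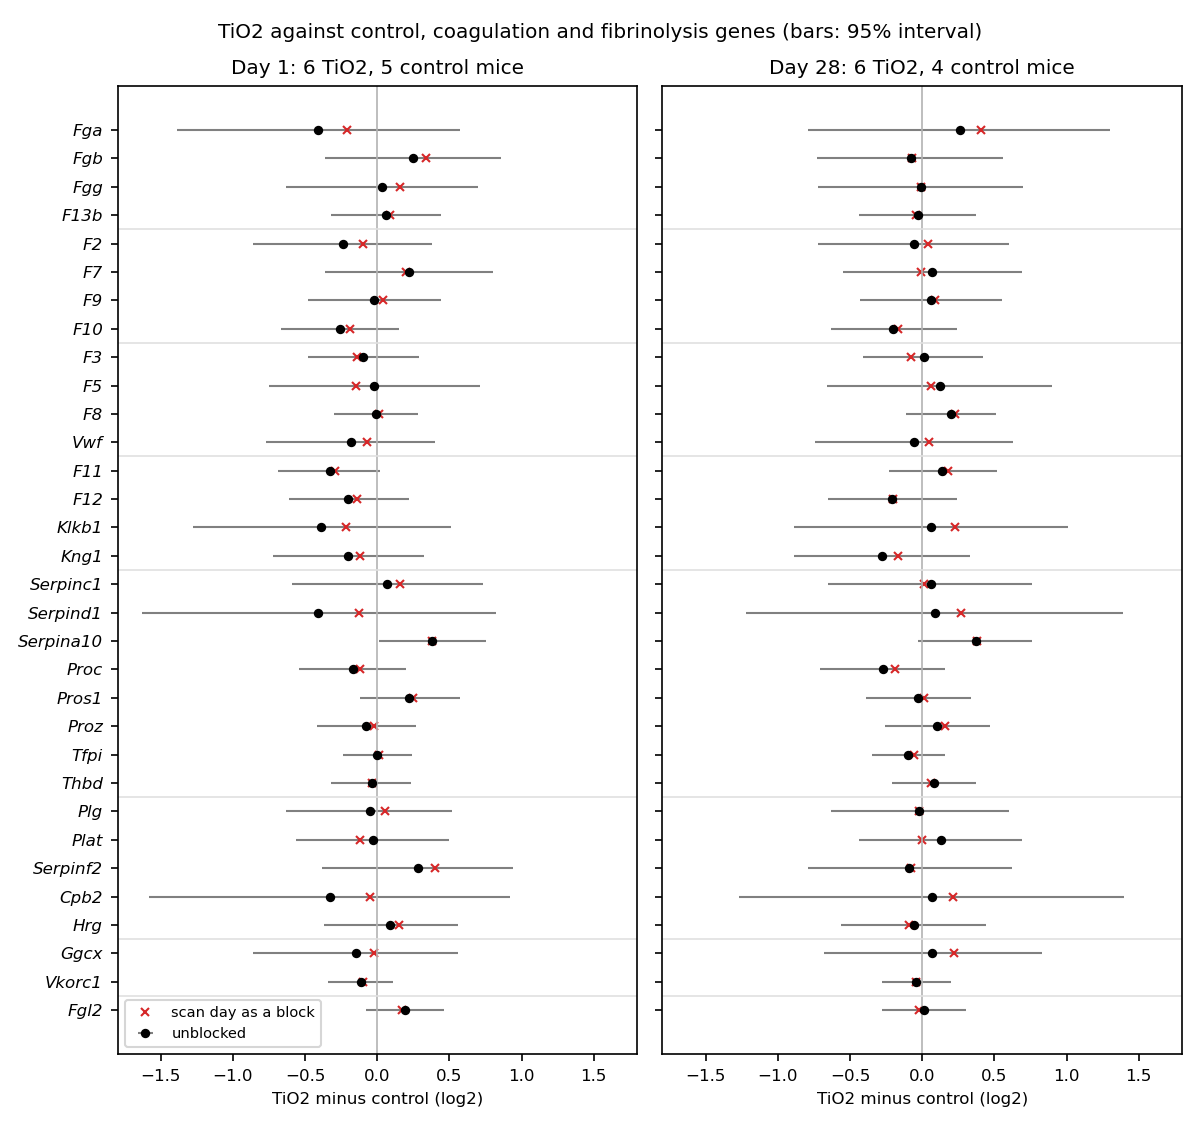
Difference between TiO2 and control mice (log2) for the 32 tested genes at day 1 (left) and day 28 (right). Points with 95% intervals are from limma, crosses from the fit blocked by scan day; grey lines part the functional groups. All intervals contain 0 except that of Serpina10 at day 1, from 0.01 to 0.75, and the widest belong to Cpb2, Serpind1 and Fga.

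Fibrinogen, the substrate of the clot, is built from the products of Fga, Fgb and Fgg, and Fga was the chain with the largest differences between groups. Fga levels at day 1 were 5.06, 6.36, 6.07, 6.34 and 6.17 in the controls, and in TiO2 mice the lowest was 3.95, the median 5.87 and the highest 6.45. At day 28 the controls had 3.82, 6.10, 5.89 and 5.67, and TiO2 mice had a lowest level of 4.13, a median of 5.94 and a highest of 6.27. The groups overlapped, and the low values in every group came from arrays of the first scan day. The TiO2 difference was -0.41 ± 0.47 (SE) at day 1 and 0.26 ± 0.50 at day 28, and these differed from each other by 0.67 ± 0.69. With scan day as a block the differences were -0.21 ± 0.21 and 0.41 ± 0.22 (limma adjusted p = 0.993 and adjusted p = 1). Within scan days 1, 2 and 3 the day 28 difference was 0.90, 0.12 and 0.38. Without control replicate 1 of day 28, the only control of its group on the first scan day, the unblocked difference was -0.26, with 2 TiO2 mice of that scan day still in the fit.

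Fgb, which encodes the beta chain, had day 1 levels of 5.82, 7.54, 7.26, 7.88 and 7.51 in controls. In TiO2 mice its lowest level was 6.69, its median 7.38 and its highest 8.04. The day 28 controls had Fgb levels of 7.15, 7.41, 7.09 and 7.64, and the TiO2 mice ranged from 6.76 through a median of 7.19 to 7.93. The groups overlapped at both days, and the lowest Fgb level of all mice was that of control replicate 1 of day 1. The differences were 0.25 ± 0.29 at day 1 and -0.08 ± 0.31 at day 28.

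Fgg, the gene of the gamma chain, had levels of 8.56, 9.63, 9.37, 10.13 and 9.99 in the day 1 controls and 8.57 to 10.31 in TiO2 mice, with a median of 9.63. At day 28 the controls had 9.05, 9.66, 9.27 and 10.10, and TiO2 mice ranged from 8.94 to 10.28 with a median of 9.43. Every group thus spanned nearly the same range, ordered by scan day, and the differences were 0.03 ± 0.32 and -0.01 ± 0.34. F13b, which encodes the carrier subunit of the fibrin cross-linking factor XIII, differed by 0.06 ± 0.18 and -0.03 ± 0.19. Its reference signal was well above background on 3 of 21 arrays.

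**Figure D2:**
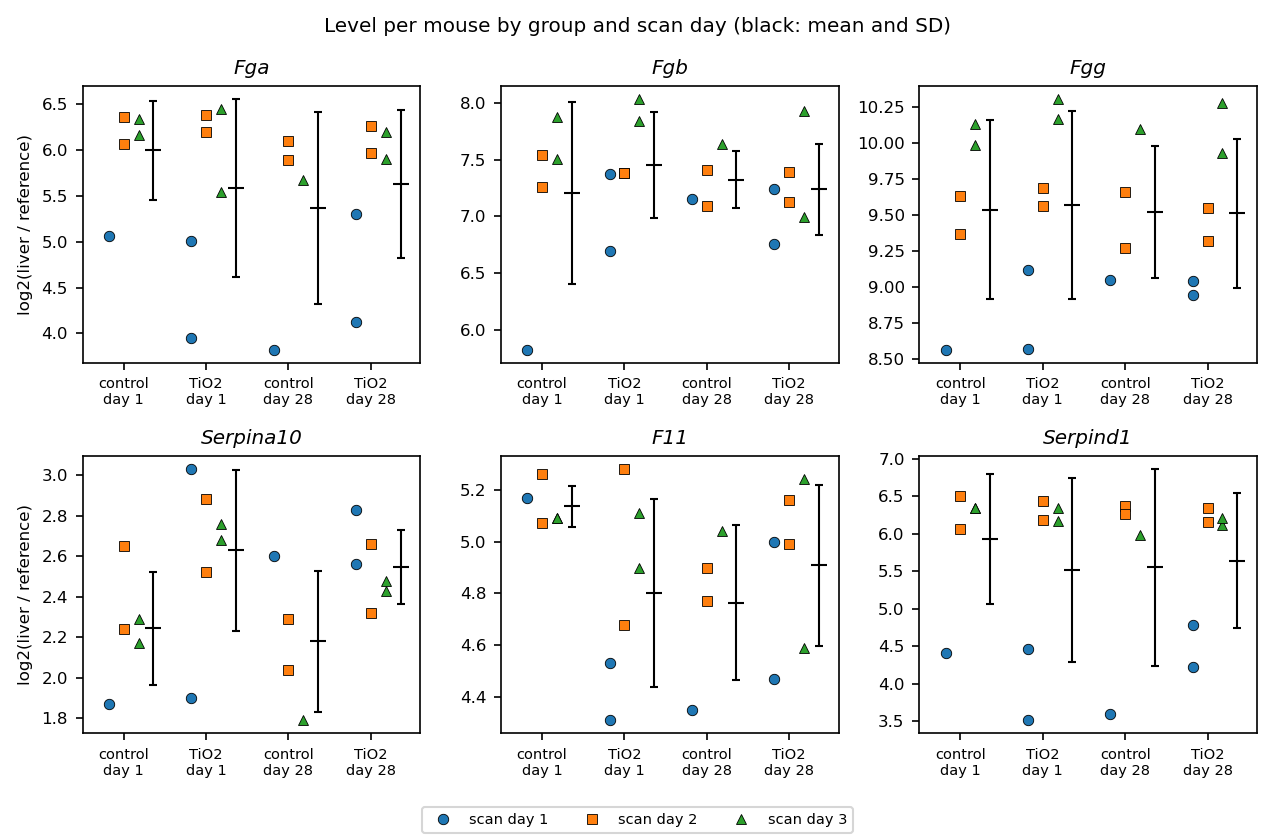
Level in each mouse, as log2 of liver over reference, for 6 genes by group, with the scan day given by colour and shape and each group's mean and SD in black. First-day arrays are lowest for Fga, Fgg and Serpind1 in every group, whereas Serpina10 shows no such order and F11 in day 1 controls is confined to 5.07 to 5.26.

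Across the 21 mice, Fgb and Fgg varied together on each scan day, whereas Fga varied with them only on the second. Fgb and Fgg had Pearson r = 0.84 and Spearman rho = 0.86 (permutation p = 1e-05 for r, the smallest the resamples can give, and 2e-05 for rho; 6e-05 and 0.00012 adjusted over 6 relations). Without the 2 mice farthest from the median of Fgb, r was 0.80, and within scan days 1, 2 and 3 it was 0.86, 0.90 and 0.82 (6, 8 and 7 mice). After the group and scan day means were removed, r was 0.79 (permutation p = 0.00027, 0.00162 adjusted).

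Fga and Fgg had r = 0.69 and rho = 0.64 (permutation p = 0.00046 and 0.0023; 0.00138 and 0.0069 adjusted), and r = 0.60 without the 2 farthest mice. Within the scan days, however, r was -0.01, 0.86 and -0.01, and 0.25 over the deviations from group and scan day means, so the pooled relation did not hold within 2 of the 3 days. Fga and Fgb had r = 0.44 and rho = 0.48 (permutation p = 0.0505 and 0.0285; 0.0757 and 0.0428 adjusted), r = 0.38 without the 2 farthest mice, and -0.34, 0.87 and -0.28 within scan days. The acute phase gene Saa1, which encodes a serum amyloid A protein, had r = 0.49 with Fgb, 0.40 with Fgg and 0.19 with Fga (permutation p = 0.0512, 0.0913 and 0.402 adjusted). Their rho was 0.55, 0.41 and 0.17 (permutation p = 0.0222, 0.0818 and 0.465 adjusted). Saa1 averaged 4.86 in the TiO2 mice of day 1 and 2.85 to 3.08 in the other groups, a difference that these pooled values include. Over the deviations, Fgg and Saa1 had r = 0.59 (permutation p = 0.0181 adjusted) and 0.40 without the 2 farthest mice. For Fgb and Fga with Saa1, r over the deviations was 0.41 and 0.11 (permutation p = 0.254 and 0.743 adjusted). Within scan days 1, 2 and 3 it was 0.37, 0.54 and 0.69 for Fgg, 0.47, 0.40 and 0.61 for Fgb, and 0.11, 0.50 and -0.08 for Fga.

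**Figure D3:**
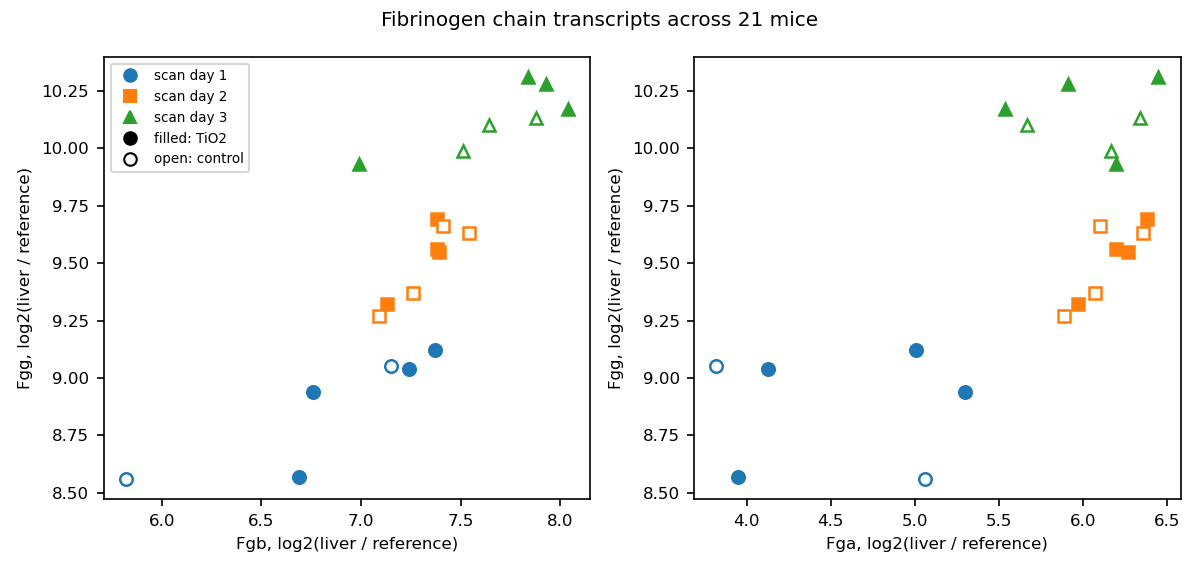
Levels of Fgg against Fgb (left) and against Fga (right) in 21 mice, as log2 of liver over reference, with colour and shape for scan day, filled symbols for TiO2 and open ones for control mice. Fgb and Fgg vary together within each scan day (r = 0.86, 0.90 and 0.82), whereas Fga and Fgg do so only on the second day (r = -0.01, 0.86 and -0.01).

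The promoters of the fibrinogen genes are shown for their sequence, and their part in how the chains varied together was not tested. They come from RefSeq on build GRCm38.p6 and run from 250 bases before to 50 after the start of each gene, 5′ to 3′ on the gene's own strand. Fga lies at chr3:83025903-83026202 on the plus strand, Fgb at chr3:83049814-83050113 on the minus strand and Fgg at chr3:83007474-83007773 on the plus strand. Capitals mark matches, on either strand, to CTGGGAA (letters of the interleukin-6 response element of acute phase genes) and TTGCNNAA (C/EBP).
Fga: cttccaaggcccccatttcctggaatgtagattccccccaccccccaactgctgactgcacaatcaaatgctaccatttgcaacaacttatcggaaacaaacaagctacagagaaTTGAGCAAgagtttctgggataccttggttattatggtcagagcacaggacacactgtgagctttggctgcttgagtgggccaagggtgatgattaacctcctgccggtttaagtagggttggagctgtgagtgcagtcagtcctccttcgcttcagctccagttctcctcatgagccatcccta
Fgb: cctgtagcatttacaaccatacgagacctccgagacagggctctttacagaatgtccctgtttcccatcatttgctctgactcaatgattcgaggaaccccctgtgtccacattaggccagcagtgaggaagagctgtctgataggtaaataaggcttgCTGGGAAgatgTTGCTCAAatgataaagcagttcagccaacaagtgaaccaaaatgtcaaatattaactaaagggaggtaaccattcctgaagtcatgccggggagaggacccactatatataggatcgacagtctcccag
Fgg: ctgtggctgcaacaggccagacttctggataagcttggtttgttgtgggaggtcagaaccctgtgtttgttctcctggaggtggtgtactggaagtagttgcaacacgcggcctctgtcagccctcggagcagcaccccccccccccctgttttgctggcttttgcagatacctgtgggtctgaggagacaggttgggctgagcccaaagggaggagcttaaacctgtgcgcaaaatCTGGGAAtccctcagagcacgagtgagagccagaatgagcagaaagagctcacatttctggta
CTGGGAA was found in Fgb, 91 bases before the start, and in Fgg, 13 bases before it, and not in the Fga window. TTGCNNAA was found in Fga, on the opposite strand as TTGAGCAA 135 bases before the start, and in Fgb as TTGCTCAA 80 bases before it. No match overlapped another. Of all 32851 promoter windows of this length, 11.1% held CTGGGAA and 10.8% TTGCNNAA. Of 27 windows for the 26 member genes with an entry, 5 and 10 did. A match of letters shows no binding.

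The vitamin K-dependent proteases of the cascade did not pass the test. F2, the gene of prothrombin, had levels of 7.62 ± 0.37 (SD) in 5 controls and 7.39 ± 0.53 in 6 TiO2 mice at day 1, a difference of -0.24 ± 0.30 (SE). At day 28 it had 7.44 ± 0.70 in 4 controls and 7.38 ± 0.55 in 6 TiO2 mice, a difference of -0.06 ± 0.32. F7, whose product binds tissue factor, differed by 0.22 ± 0.28 at day 1 and 0.07 ± 0.30 at day 28, from control levels of 4.77 ± 0.63 and 4.64 ± 0.30 (SD). F9, the gene affected in haemophilia B, differed by -0.02 ± 0.22 and 0.06 ± 0.24. F10, which encodes the protease that activates prothrombin, differed by -0.26 ± 0.20 and -0.20 ± 0.21. Its means were 5.94 ± 0.17 (SD) and 5.79 ± 0.27 in controls against 5.68 ± 0.36 and 5.59 ± 0.46 in TiO2 mice. Without the arrays of the first scan day the F10 differences were -0.01 and -0.02. Ggcx and Vkorc1, the carboxylase and reductase of the vitamin K cycle, differed by -0.15 ± 0.34 (SE) and -0.11 ± 0.11 at day 1, and by 0.07 ± 0.36 and -0.04 ± 0.12 at day 28.

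Tissue factor, encoded by F3, starts the cascade when cells that carry it meet blood. F3 was well above background in liver on 10 of 21 arrays and differed by -0.10 ± 0.19 (SE) and 0.01 ± 0.20 at days 1 and 28. F5 and F8 encode the cofactors of activated factors X and IX. F5 levels were 3.76 ± 0.89 (SD, n = 5) and 3.73 ± 0.70 (n = 6) in control and TiO2 mice at day 1 and 3.43 ± 0.44 (n = 4) and 3.56 ± 0.36 (n = 6) at day 28. The F5 differences were -0.02 ± 0.35 (SE) and 0.12 ± 0.37. F8 levels at day 28 were 0.52 ± 0.19 (SD) in controls and 0.72 ± 0.15 in TiO2 mice, a difference of 0.20 ± 0.15 (SE), while at day 1 they differed by -0.01 ± 0.14. The reference RNA was well above background on 3 of 21 arrays for F5 and on 5 for F8. On the other arrays the denominator of these ratios was thus near background. Vwf, the gene of the endothelial and platelet protein that carries factor VIII, differed by -0.18 ± 0.28 and -0.06 ± 0.33. The second value rests on 3 controls, since the Vwf spot of control replicate 4 was marked by the scanner software. The authors' deposited table, which has a value for that spot, gave -2.53 at day 28 and 2.37 between the controls, where the fit here gave -0.14. A second Vwf probe gave 0.06 at day 28 and -0.11 between the controls.

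The contact pathway genes were all lower in TiO2 mice at day 1 and none passed the test, with differences of -0.20 to -0.39 and a median of -0.26. With scan day as a block they were -0.29 for F11, -0.14 for F12, -0.22 for Klkb1 and -0.12 for Kng1. Without the arrays of the first scan day the direction was no longer shared: F12 differed by 0.04 and Kng1 by 0.05, while F11 stayed lower at -0.13. Klkb1 stayed lower whichever scan day was left out, and within scan days 1, 2 and 3 it differed by -0.09, 0.02 and -0.56. F11, the gene of the protease that activates factor IX, had levels of 5.17, 5.07, 5.26, 5.09 and 5.09 in the day 1 controls. The day 1 TiO2 mice had a lowest F11 level of 4.31, a median of 4.79 and a highest of 5.28. The day 28 controls had 4.35, 4.90, 4.77 and 5.04, and the day 28 TiO2 mice ranged from 4.47 to 5.24 with a median of 5.00. The day 1 controls were thus tightly clustered, and 1 of 6 TiO2 mice of that day lay above their mean. F11 differed by -0.33 ± 0.17 at day 1 (95% interval -0.69 to 0.02, limma adjusted p = 1) and by 0.14 ± 0.18 at day 28. Within scan days the day 1 difference was -0.75, -0.18 and -0.08.

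F12, which encodes the initiator of contact activation, differed by -0.20 ± 0.20 at day 1 and -0.21 ± 0.21 at day 28. Klkb1, the prekallikrein gene, had day 1 levels of 2.91 ± 0.60 (SD, n = 5) in control and 2.52 ± 0.79 (n = 6) in TiO2 mice, a difference of -0.39 ± 0.43 (SE). At day 28 it differed by 0.06 ± 0.46. Kng1 encodes kininogen, the carrier of prekallikrein and factor XI. It differed by -0.20 ± 0.25 and -0.28 ± 0.29, the second over 3 controls with a value. The control without one was the only day 28 control on the first scan day. In the fit blocked by scan day the day 28 difference was -0.17 ± 0.18, and within scan days 2 and 3 it was -0.07 and -0.03. A second Kng1 probe gave -0.13 and 0.27, so the probes differed in sign at day 28. The authors' deposited table, which has a value for the marked spot, gave 0.83 there. Kng1 has a close paralog, Kng2, and how far either probe separates them was not tested.

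The hepatocyte markers moved in the same direction at day 1. Of 15 tested, 14 were lower in TiO2 mice, with a median difference of -0.175 (-0.078 in the blocked fit), and none passed the test. Their summed liver over reference ratio ranged from 3060 to 5280 in controls and from 1910 to 4930 in TiO2 mice. At day 28, 8 were higher and 7 lower, with a median of 0.002. Their part in the differences of the liver-made clotting genes was not tested.

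Among the anticoagulant genes, Serpina10 had the lowest unadjusted p of all 32 genes at both days. Its product inhibits activated factor X together with protein Z. Serpina10 levels in day 1 controls were 1.87, 2.65, 2.24, 2.17 and 2.29, and in TiO2 mice the lowest was 1.90, the median 2.72 and the highest 3.03. In day 28 controls they were 2.60, 2.04, 2.29 and 1.79, and in TiO2 mice they ranged from 2.32 to 2.83 with a median of 2.52. The groups overlapped at both days. At day 1, 5 of 6 TiO2 mice exceeded the mean of the controls, and at day 28 6 of 6 did.

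The Serpina10 difference was 0.38 ± 0.18 at day 1 (1.31-fold, 95% interval 0.01 to 0.75, limma adjusted p = 1). At day 28 it was 0.37 ± 0.19 (interval -0.03 to 0.76, limma adjusted p = 1). Both were positive within each scan day, at 0.60, 0.26 and 0.49 on day 1 and 0.10, 0.33 and 0.66 on day 28. They remained positive when any mouse was left out, at 0.29 to 0.53 and 0.24 to 0.51. Scan day accounted for 1.5% of the variance of Serpina10 and group for 31.3%, the highest group share among the 32 genes. The reference RNA was not well above background for this probe on any array, so the denominator of its ratio was at background. With the liver channel alone the differences were 0.29 and 0.24. Neither passed the test after adjustment over all features.

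The partner of that inhibitor, Proz, differed by -0.08 ± 0.17 and 0.10 ± 0.18. Serpinc1, the gene of antithrombin, had levels of 9.29 ± 0.70 (SD) and 9.36 ± 0.58 in control and TiO2 mice at day 1, and 9.20 ± 0.45 and 9.26 ± 0.51 at day 28. Its differences were 0.07 ± 0.32 (SE) and 0.06 ± 0.34. Serpind1 encodes heparin cofactor II, a thrombin inhibitor, and had means of 5.93 ± 0.86 (SD) in control and 5.52 ± 1.23 in TiO2 mice at day 1. At day 28 they were 5.55 ± 1.31 and 5.64 ± 0.90. Its differences of -0.41 ± 0.59 (SE) and 0.09 ± 0.63 became -0.13 ± 0.16 and 0.27 ± 0.17 with scan day as a block. Within scan days they were -0.42, 0.04 and -0.08 at day 1 and 0.90, -0.07 and 0.19 at day 28. All first-day Serpind1 values were low, so leaving out 1 of these mice without the block changes the balance of scan days. Without control replicate 1 of day 28 the second difference was -0.56, and without TiO2 replicate 2 of day 1 the first was 0.00.

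Proc, the gene of protein C, differed by -0.17 ± 0.18 at day 1 and -0.27 ± 0.21 at day 28, the latter over 3 controls. The control without a Proc value was the only day 28 control on the first scan day. In the fit blocked by scan day the day 28 difference was -0.19 ± 0.15, and within scan days 2 and 3 it was -0.16 and -0.04. The day 28 levels of Proc were 6.36 ± 0.29 (SD, n = 3) in control and 6.09 ± 0.36 (n = 6) in TiO2 mice. Pros1, the gene of its cofactor protein S, differed by 0.22 ± 0.17 (SE) and -0.03 ± 0.18. Thbd encodes thrombomodulin, the endothelial receptor that turns thrombin towards protein C, and differed by -0.04 ± 0.13 and 0.08 ± 0.14. Tfpi, the gene of the tissue factor pathway inhibitor, was well above background on 8 arrays and differed by 0.00 ± 0.12 and -0.10 ± 0.12. The Serpina5 probe gave no fold, since neither channel was well above background on any array.

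Of 14 endothelial markers, 12 were lower at day 1 (median -0.084) and 11 higher at day 28 (median 0.122), and none passed the test. Their summed ratio ranged from 72.6 to 109 in control and 62.6 to 93.7 in TiO2 mice at day 1, and from 66.4 to 109 and 64.7 to 109 at day 28. Of 10 platelet markers 6 were tested, 5 of them higher at day 1 and 3 at day 28, with 0 past the test at either day. The part of these cells in the values of Vwf, F8, Thbd and Plat was not tested.

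The fibrinolysis genes also did not pass the test. Plg, the gene of plasminogen, had levels of 7.27 ± 0.50 (SD) in control and 7.22 ± 0.45 in TiO2 mice at day 1, and 6.94 ± 0.55 and 6.93 ± 0.50 at day 28. Its differences were -0.05 ± 0.28 (SE) and -0.02 ± 0.29. Plat, the gene of tissue plasminogen activator, differed by -0.03 ± 0.25 and 0.13 ± 0.27. Plau had levels of -0.73 ± 0.28 (SD), -0.84 ± 0.25, -0.85 ± 0.27 and -0.80 ± 0.26 in the controls and TiO2 mice of day 1 and of day 28. Its reference signal was well above background on 21 arrays while its liver signal was so on 0, so these levels are at background and no fold is given.

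Serpinf2 encodes alpha-2-antiplasmin, the main inhibitor of plasmin. Its day 1 levels were 4.92, 6.28, 6.53, 7.13 and 6.98 in controls, and 5.99, 6.61 and 7.19 were the lowest, median and highest in TiO2 mice. The groups overlapped, and the difference of 0.28 ± 0.32 (SE) became 0.40 ± 0.15 with scan day as a block (limma adjusted p = 0.993). Within the scan days it was 1.35, 0.11 and 0.11. The first of these compares 2 TiO2 mice with control replicate 1, and without that mouse the unblocked difference was -0.08. At day 28 the difference was -0.09 ± 0.34. Cpb2, the gene of the carboxypeptidase that protects fibrin from plasmin, differed by -0.33 ± 0.60 and 0.07 ± 0.64, and Hrg, which encodes a plasminogen-binding glycoprotein, by 0.09 ± 0.23 and -0.06 ± 0.24. Fgl2, the gene of a membrane-bound prothrombinase, differed by 0.19 ± 0.13 and 0.01 ± 0.14.

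The change in the TiO2 difference from day 1 to day 28 was tested as an interaction. None of the 32 genes passed (limma adjusted p = 1), as 0% of all features did. Before adjustment 0 of them had p under 0.05, against 0.738% of all features. When scan day was blocked, F11 and Serpinf2 did, against 2.96%. The largest values were 0.67 ± 0.69 for Fga, 0.49 ± 0.86 for Serpind1 and 0.48 ± 0.25 for F11. With the block, F11 had 0.46 ± 0.20 (limma adjusted p = 0.999) and Serpinf2 -0.48 ± 0.23 (limma adjusted p = 0.999). Within scan days the F11 value was 1.14, 0.42 and -0.04.

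The day 28 controls were compared with the day 1 controls, which shared the vehicle and differed in the time after it and in age. Of the 32 genes, 8 were higher and 24 lower at day 28, with a median of -0.118 against -0.004 over all features, and none passed the test (limma adjusted p = 1; 0% of all features passed). Here 14 of 15 hepatocyte markers were lower too, with a median of -0.189, and their part was not tested. In the fit with scan day as a block the median was -0.072 for the 32 genes and -0.085 for these markers. Without adjustment 0 genes had p under 0.05, against 3.02% of all features. When scan day was blocked, Fga and F11 did, against 7.72%. Fga differed by -0.63 ± 0.52 (-0.57 ± 0.23 with the block, limma adjusted p = 0.593). Within scan days Fga differed by -1.24, -0.22 and -0.58, and without the first scan day by -0.35. Without control replicate 1 of day 28 alone, which leaves a day 1 control but no day 28 control on the first scan day, the unblocked Fga difference was -0.11. F11 differed by -0.37 ± 0.19 (-0.36 ± 0.15 with the block, limma adjusted p = 0.619), by -0.23 without that mouse, and by -0.82, -0.33 and -0.05 within scan days. For F11 all 4 day 28 controls lay below all 5 day 1 controls, the only such gene of the 32. The 2 control groups did not overlap for 0.698% of all features. These controls are the ones the TiO2 mice were compared with, so the F11 values of the comparisons are not independent of each other.

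Scan day accounted for more of the spread of these genes than the groups did. Its median share of a gene's variance over mice was 56.0%, against 5.2% for the 4 groups, and it exceeded 50% in 19 of 32 genes. The first scan day had the lowest mean in 24 genes and the highest in 5. In 7 genes (Serpind1, Cpb2, Fgg, F2, Plg, Fga and Vwf) all first-day values lay below all others. These shares and counts were taken for the 32 genes only. Dependence on scan day was not limited to them, since it accounted for 91.7% of the first principal component of all features. For Cpb2 the means were 3.40, 5.35 and 5.65 on scan days 1, 2 and 3, and for Serpind1 4.17, 6.29 and 6.22. F5, whose reference signal was well above background on only 3 arrays, went the other way, with 4.31, 3.40 and 3.31. Each group had 2 mice on each scan day, except that either control group had 1 on the first and the day 28 controls had 1 on the third. Of scanning, labelling and RNA handling, only the scan date is recorded, so these steps cannot be told apart.

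**Figure D4:**
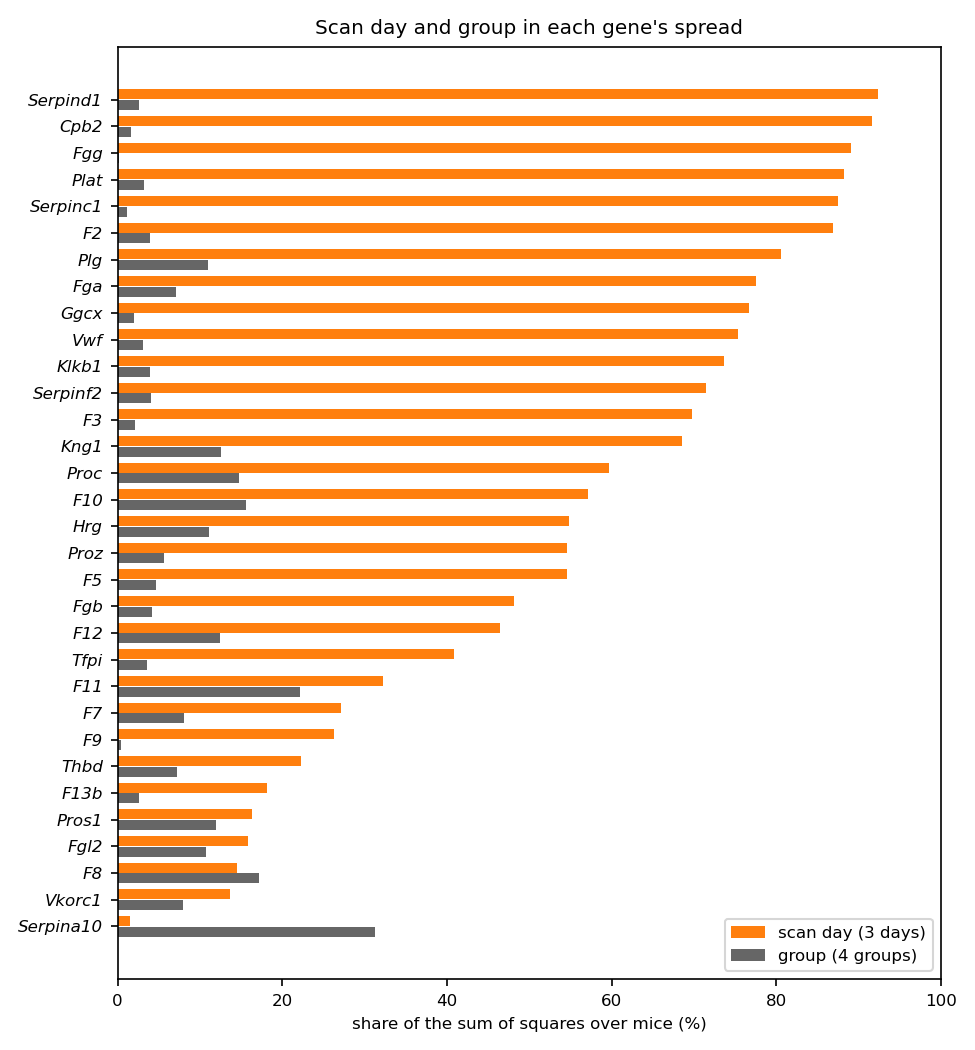
Share of the sum of squares over mice (percent) accounted for by scan day (orange) and by group (grey) in each of the 32 genes, sorted by the first. Scan day exceeds 50% in 19 genes, from Serpind1 (92.3%) to F5 (54.6%), and falls below the group share in F8 (14.5% against 17.2%) and Serpina10 (1.5% against 31.3%).

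Other genes of clotting and fibrinolysis were taken from a further list of 34, of which 23 were tested. None passed at day 1, where 16 were higher and 7 lower, or at day 28, where 16 were higher and 7 lower. Their median differences were 0.054 and 0.070, against -0.007 and 0.002 over all features. Fgl1, the gene of a fibrinogen-like protein made by hepatocytes, was the 1 gene of the 23 with an unadjusted limma p under 0.05 at day 1, where 1.74% of all features had one. It differed by 0.50 ± 0.21 at day 1 (95% interval 0.07 to 0.93, limma adjusted p = 1) and by 0.25 ± 0.22 at day 28. At day 1 its levels were 6.44 ± 0.36 (SD, n = 5) in controls and 6.94 ± 0.39 (n = 6) in TiO2 mice, and within scan days it differed by -0.30, 0.69 and 0.92. Serping1, the C1 inhibitor gene, differed by 0.07 ± 0.38 (SE) and -0.17 ± 0.41. When scan day was blocked, its day 1 difference was 0.25 ± 0.11 (limma adjusted p = 0.993). Within scan days 1, 2 and 3 it was 0.65, 0.08 and 0.11. In the blocked fit, 2 of the 23 genes (Fgl1 and Serping1) had an unadjusted limma p under 0.05 at day 1, where 4.07% of all features did. F13a1, the catalytic subunit gene of factor XIII, was above background on 1 array and was not tested.

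Regulators of the fibrinogen genes were taken from a list of 10, all tested, of which none passed. Cebpb, which encodes a C/EBP factor of the acute phase response, differed by 0.72 ± 0.29 at day 1 (95% interval 0.12 to 1.32, limma adjusted p = 1) and by 0.15 ± 0.31 at day 28. Between the day 28 and day 1 controls it differed by 0.91 ± 0.32 (interval 0.25 to 1.57, limma adjusted p = 1). Its mean level was -0.23 ± 0.86 (SD) in the day 1 controls and 0.49 to 0.83 in the other groups. Without control replicate 1 of day 1, the day 1 difference was 0.43. A second Cebpb probe gave 0.30 at day 1 and 0.42 between the controls. The other 9 regulators, among them Stat3, Socs3 and Hnf4a, had unadjusted p-values over 0.05 in all 4 comparisons. Of all features, 1.74% at day 1 and 3.02% between the controls had an unadjusted limma p under 0.05.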

How the data were processed

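Liver RNA of 21 mice was measured on Agilent 2-colour arrays (liver Cy5, universal mouse reference Cy3). The series' design text names 22 arrays, of which 21 were used here. The deposited scanner values are intensity: median pixel brightness of each spot and its local background, not normalized, from Feature Extraction 10.7.3.1 per the file headers (the submitters' processing notes give 9.5.3.1). A second deposited table gives the authors' processed log2 values, with scale, centring and direction unstated. Set against red over green ratios of the scanner signals its correlations were 0.995 to 0.997, its slopes 0.991 to 0.993 and its column medians -0.058 to -0.011, so its direction and scale were taken from this match, while its centring stays unknown. It served as an alternative.

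With limma 3.58.1 in R 4.3.3, the median signals were background-corrected (normexp, offset 50), control spots (1639) and marked spots (103 to 502 per array) were left out, and loess was applied within each array. Spots of a probe were averaged. A probe was kept where liver was well above background on at least 50% of the arrays of a group, and the brightest probe stood for a gene. Probes were named by accession through a RefSeq table, 23374 of 41174. The array's build differs from that of the RefSeq tables, so no probe coordinates are given. One model of the 4 group means was fitted to 17623 features, with Benjamini-Hochberg adjustment over all of them and a threshold of 0.05. The code was tested on simulated data. Correlations were tested with 100000 permutations, two-sided. Marked spots left Proc, Kng1 and Vwf without a value on 1 control array of day 28 each.

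The members and all gene lists were chosen with earlier results of these data known. Described in full are members with an unadjusted p under 0.05, the 3 with the largest difference in each comparison, and F2, F3, F5, F7, F8, F9, F10, Fga, Fgb, Fgg, Proc, Serpinc1, Plg, Plat, Plau, Thbd and Vwf. From the further pathway list, genes with an unadjusted p under 0.05 and F13a1, Fgl1 and Serping1 are given (1 further gene that this rule names is not reported here), and from the regulators those with an unadjusted p under 0.05. Replicate numbers follow the order of deposition. The alternatives changed the background correction, the normalization, the probe filter, the probe per gene, scan day or slide as a block, the arrays in the fit, and array weights, and left out each mouse or scan day in turn. Kupffer cell and neutrophil markers were also counted: all 11 of the former and 3 of 4 of the latter were higher in TiO2 mice at day 28 (medians 0.162 and 0.111), and 9 of 11 and 2 of 4 at day 1 (0.101 and 0.037), none past the test. Of 13 lung markers, 10 were tested, 6 higher at either day (0.070 and 0.024).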

Additional observations from a re-analysis of the deposited data

Results flagged for a closer look

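In the control groups, single mice stood apart for 7 of the 32 tested genes. In 125 groups of 4 to 6 mice, the gap of the extreme mouse to its nearest neighbour exceeded Dixon's 95% limit 9 times, and chance gives about 1 in 20 groups. Of the 9 values, 8 came from the first scan day and 6 from control replicate 1 of day 1, the only control of its day on that scan day. In that mouse the levels (log2 of liver over reference) were 3.51 for Cpb2, 5.06 for Fga, 4.41 for Serpind1, 1.85 for Klkb1 and -0.08 for F8, the lowest of the 5 controls, and 5.32 for F5, the highest. Control replicate 1 of day 28, also the only one of its group on the first scan day, had the lowest levels of its 4 controls for Cpb2, 2.89, and Serpind1, 3.6. The remaining value was 6.07 for F12 in control replicate 2 of day 1, from the second scan day. For Cpb2, Fga and Serpind1 the first-day values of all groups lay below all other values. Each control group had 1 mouse on the first scan day and each TiO2 group had 2. A gap to the nearest neighbour can thus single out a lone first-day control, but hardly 1 of a first-day pair. The count therefore does not separate the mouse from its scan day, and the part of scan day was not tested for single mice.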

How the results depend on the processing

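No paired analysis was possible because the labels give no replicate numbers that groups share. No member passed the adjusted threshold under any alternative run. Of 3744 member values under alternatives, 3661 moved by less than the spread between replicates and 83 by more, 66 of these within single scan days. Over all features, the number past the threshold at day 1 was 0, but 3 with slide as a random block, 1 with array weights and 0 to 3 when a mouse was left out (3 without TiO2 replicate 2). For the day 28 against the day 1 controls it was 0, but 4 with array weights and 0 to 1 when a mouse was left out (1 without control replicate 4 of day 1). Over deviations from group and scan day means, r was -0.20 for Fga and Fgb against 0.44, and 0.25 for Fga and Fgg against 0.69. The deviations leave out the differences between scan days. Leaving out 1 mouse, the members' median difference ranged from -0.138 to 0.002 at day 1, from -0.136 to 0.063 at day 28, from -0.066 to 0.134 for the interaction and from -0.183 to 0.023 between the controls. F3, Fgl2 and Tfpi were well above background on 8 to 12 of 21 arrays, so their values rest on few arrays with a clear liver signal.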
